A study of Mus musculus with 14 samples.

Results

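The genes of the deubiquitinase module of SAGA and the paralogs of Usp22 were followed in mammary epithelial cells of mice that overexpress Usp22. The set was defined by name and held 9 genes, Usp22, Usp27x, Usp51, Atxn7, Atxn7l1, Atxn7l2, Atxn7l3, Atxn7l3b and Eny2. Of these, 8 were among the 16124 genes of the table, and Usp51 was not analysed here. RNA was measured by polyA RNA-seq, with 1 library per mouse, in 7 wild-type (WT) females and 7 homozygous Rosa26KI-Usp22 OE/OE females (OE), all nulliparous and 3.5 months old and matched as littermates in the pairs numbered 1, 3, 4, 5, 6, 7 and 8. The OE mice carried a tagged mouse Usp22 cDNA at the Rosa26 locus, driven by the CAGGS promoter, and a stop cassette in front of it had been removed in the female germline with Zp3-Cre, so the transgene was on in the whole body and not in the epithelium alone. The controls were their wild-type littermates. The cells were single cells, released with trypsin from organoids of the number 2, 3 and 4 glands, which were mainly epithelial. The question was whether the partners and paralogs of Usp22 changed along with it.

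SAGA is a transcriptional coactivator complex with separate activities. One module acetylates histone H3 through GCN5 (Kat2a) or PCAF (Kat2b), and another removes ubiquitin from histone H2B. In the deubiquitinase module the protease USP22 is active only when it is assembled with ATXN7L3 and ENY2, and ATXN7 anchors the module to the rest of SAGA. ATXN7L1 and ATXN7L2 are relatives of ATXN7 that can stand in its place. USP27X and USP51 are relatives of USP22 that use the same ATXN7L3 and ENY2 adaptors outside SAGA, so the proteases draw on common partners. ATXN7L3B is a short relative of ATXN7L3 that binds ENY2, and ENY2 is also part of TREX-2, a complex of mRNA export at the nuclear pore.

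Because the transgene raised Usp22 RNA to a high level, the sequences of the paralogs were compared first, to see how far reads of one gene could be taken for another. Transcripts of GENCODE M21 (GRCm38) were used, and the coding sequences of Usp22 and Usp27x were 78.1% identical over 1234 aligned bases, with a longest identical run of 32 bases. The most alike stretch of 75 bases, the read length, lay at coding bases 1411 to 1485 of Usp22 and 1114 to 1188 of Usp27x, in the part that encodes the protease domain. It is shown with the 6 mismatched bases in capitals.
Usp22: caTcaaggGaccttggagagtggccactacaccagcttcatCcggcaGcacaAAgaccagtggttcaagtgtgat
Usp27x: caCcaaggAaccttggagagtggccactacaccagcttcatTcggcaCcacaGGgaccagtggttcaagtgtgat
Of the 4360 windows of 75 bases in the Usp22 transcript, 0 matched Usp27x with 2 or fewer mismatches, and 0 occurred in a transcript of any other gene. Usp51 was further from Usp22, with 68.6% identity and at least 14 mismatches in any window of 75 bases. Atxn7l3 and the shorter Atxn7l3b were 74.8% identical over 294 aligned bases, with at least 11 mismatches in any window of 75 bases. Among Atxn7, Atxn7l1 and Atxn7l2, no window of 75 bases had fewer than 16 mismatches. Overlap with neighbouring genes touched 3 of the genes. Atxn7l3b shared 501 of its 3572 exon bases with Gm26596 on the opposite strand. For Eny2 the share was 6.47% (266 bp with Nudcd1 and 107 bp with Gm22392), and for Atxn7l1 it was 1.92% (193 bp with the antisense gene Atxn7l1os2). Whether counting used strand is not given in the sources used here, so fragments of these stretches could not be assigned with certainty.

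The libraries held 20125106 to 41835978 counted fragments, with a lowest total of 20125106 in WT and 34074791 in OE. Values are the authors' normalized counts, which are fragments per gene divided by a DESeq size factor. Epithelial markers (Epcam, Cdh1, Cldn4 and keratin genes, 8 of 8 in the table) summed to between 371025 and 666810 normalized counts in every library, and their mean log2 level differed by 0.05 ± 0.14 between littermates (exact sign-flip p = 0.375, n = 7 pairs). Markers of other cell types were also present. The 7 fibroblast markers summed to between 87109 and 175335 in WT and between 56866 and 129640 in OE. The 7 endothelial markers summed to between 29880 and 46594 in WT and between 10979 and 61689 in OE. The 7 adipocyte markers summed to between 13284 and 34010 in WT and between 9925 and 30508 in OE, and their mean log2 level differed by -0.85 ± 0.85 (OE minus WT), with 1 of 7 pairs higher (exact sign-flip p = 0.0312). Fibroblast markers differed by -0.35 ± 0.50 (exact sign-flip p = 0.125), macrophage markers by -0.20 ± 0.38 (exact sign-flip p = 0.203), endothelial markers by -0.11 ± 0.78 (exact sign-flip p = 0.797) and the 5 lymphocyte markers in the table by -0.26 ± 1.08 (exact sign-flip p = 0.875). A pair of libraries stood apart on these lists. OE pair 4 had the lowest endothelial level (mean log2 10.2, other OE and WT libraries from 11.5 upward), and WT pair 1 had the highest lymphocyte level (7.54, other libraries at most 4.90). In bulk RNA of this kind, a smaller number of cells of one type and less RNA per cell cannot be told apart.

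Usp22 (ENSMUSG00000042506, chr11:61151785-61175055, minus strand, GRCm38), the protease of the module, rose 25.1-fold in normalized counts in OE mice. WT mice had 3500 to 5380 normalized counts (median 4119) and OE mice 74948 to 144288 (median 107962), so that the lowest OE mouse lay far above the highest WT mouse. The means were 4258 ± 695 and 107588 ± 22273 (SD, n = 7 mice each). On the log2 scale the change was 4.65 (standard error 0.11, 95% interval 4.41 to 4.89, from limma with the pair as a block, adjusted p = 4.74e-08). By unadjusted p (0.05 or less) 3.81% of all genes were called, by adjusted p (under 0.05) 0.0124%, which is Usp22 and 1 other gene, Setd5, a SET-domain gene that was named after its values were seen. WT and OE values did not overlap for 0.0434% of all genes, and among the 8 genes of the set this held for Usp22 alone. Usp22 took 0.00967% to 0.0147% of all normalized counts in WT libraries and 0.217% to 0.396% in OE libraries. The deposited counts cover all exons of the gene and cannot separate transgene from native Usp22 RNA. The fold and the shares are of counted fragments and not of RNA molecules, because the length of the transgene RNA is not given.

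The rise differed in size between litters. The ratio of OE to WT littermate was highest in pair 3 (32.6-fold) and pair 1 (29.9-fold), and lowest in pair 7 (20.1-fold) and pair 4 (21.4-fold). On the log2 scale the ratios ran from 4.33 to 5.03 with an SD of 0.27. The spread between mice was of like size before and after the rise, with a coefficient of variation of 16.3% in WT and 20.7% in OE.

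**Figure D1:**
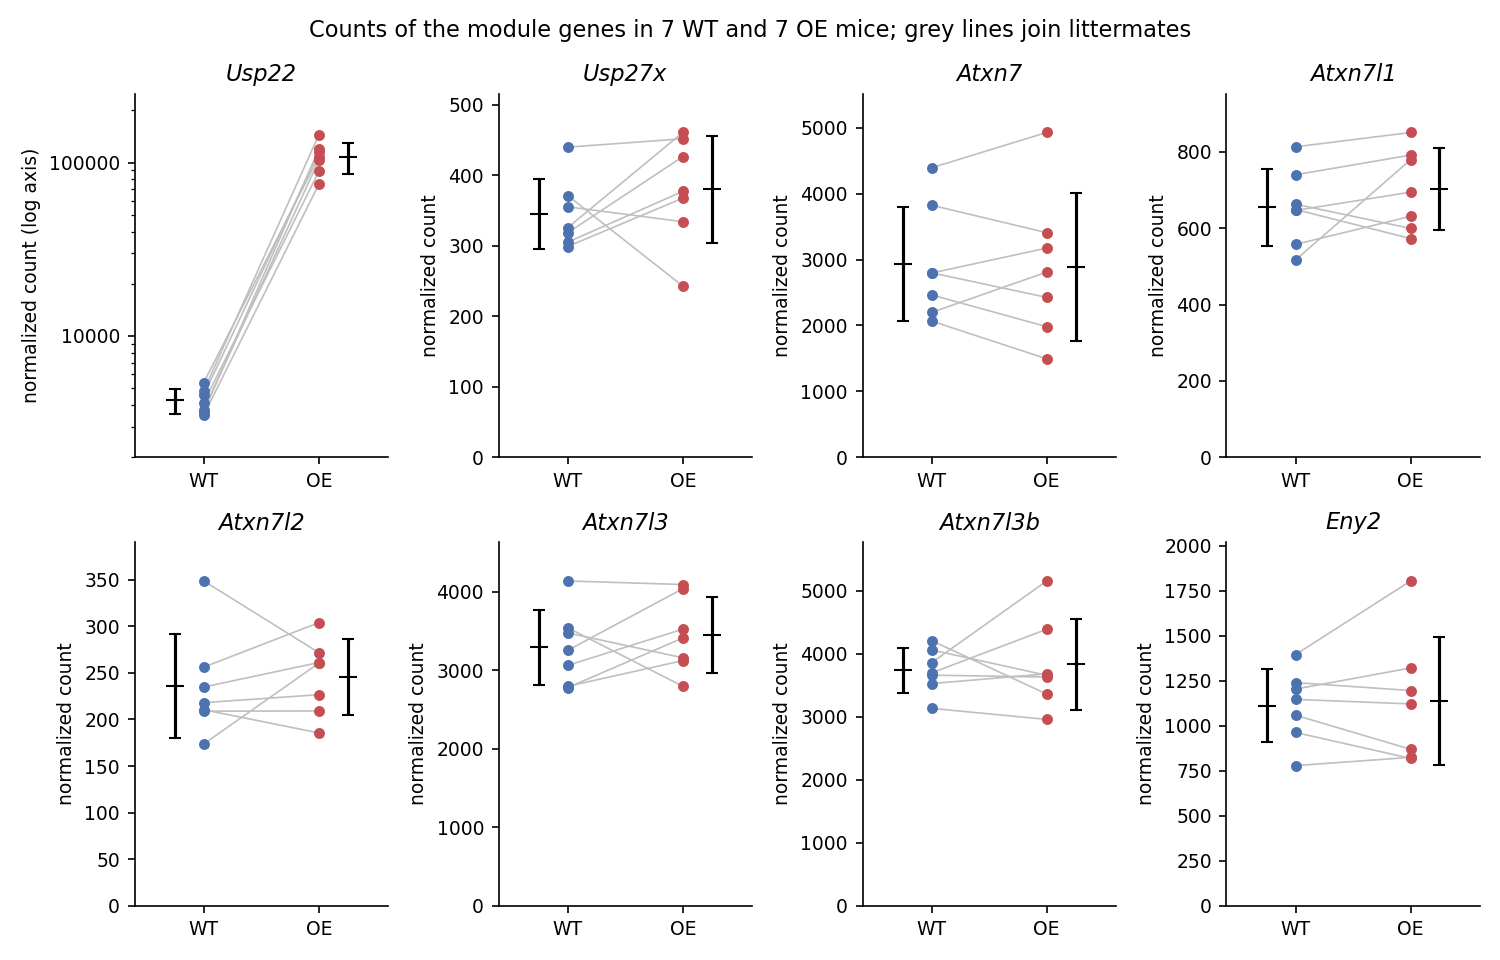
Normalized counts of the 8 genes in each mouse, with WT in blue, OE in red and a grey line joining littermates; black bars are the mean and SD over 7 mice. Usp22 is on a log axis and the other axes start at 0. The WT and OE points are apart for Usp22 (highest WT 5380, lowest OE 74948) and overlap in the other 7 panels.

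None of the 7 other genes of the set was called at the RNA level, and of the paralogs only Usp27x could be examined. At an unadjusted limma p of 0.05 or less 0 of the 7 were called (0 also with edgeR and with DESeq2). In limma the share over all genes was 3.81%, so a count of 0 among 7 genes is near the background. Limma called 614 genes of the whole table, edgeR 597 and DESeq2 626, so the same holds for these counts of 0. Their log2 fold changes lay between -0.06 and 0.12 with a median of 0.068 (all genes -0.0015). Among all genes, 37.5% had a larger change in size than the largest of these 7. The unadjusted p-values ran from 0.335 to 0.981 in limma and from 0.375 upward in the exact sign-flip test, and the adjusted limma p was 1.00 for each. Without pair 1 the count was 0 as well, and without pair 4 it was 1, Usp27x. The 95% intervals of this fit, which has no term for cell type markers, give the changes that it leaves possible. No interval reached above a log2 fold change of 0.43 or below -0.30, whereas Usp22 itself changed by 4.65.

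Atxn7l3 and Eny2 encode the adaptors without which USP22 has no activity. Atxn7l3 (ENSMUSG00000059995, chr11:102289300-102296631, minus strand) had 2776 to 4135 normalized counts in WT (median 3251) and 2794 to 4089 in OE (median 3408). The genotypes overlapped over almost their whole range, 4 of 7 pairs were higher in OE, and the log2 fold change was 0.07 ± 0.09 (standard error; interval -0.14 to 0.27, limma p = 0.471, exact sign-flip p = 0.469). Eny2 (ENSMUSG00000022338, chr15:44428042-44438256, plus strand) had 778 to 1394 normalized counts in WT (median 1145) and 818 to 1803 in OE (median 1120). The highest Eny2 value of each genotype was that of pair 4, 3 of 7 pairs were higher in OE, with a log2 fold change of -0.0022 (standard error 0.089, interval -0.20 to 0.20, limma p = 0.981, exact sign-flip p = 0.984).

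The ATXN7 family, which links the module to SAGA, was likewise not called. Atxn7 (ENSMUSG00000021738, chr14:13961440-14107302, plus strand) had the widest relative spread of the set (coefficient of variation 29.4% in WT and 38.7% in OE), from 2067 to 4395 normalized counts in WT (median 2796) and from 1493 to 4931 in OE (median 2811). Its highest value in both genotypes came from pair 5 and its lowest from pair 4, with a log2 fold change of -0.06 (standard error 0.11, interval -0.30 to 0.17, limma p = 0.554, exact sign-flip p = 0.594). Atxn7l1 (ENSMUSG00000020564, chr12:33147693-33373185, plus strand) had 517 to 813 normalized counts in WT and 573 to 851 in OE. It was higher in OE in 5 of 7 pairs, most in pair 4 (log2 ratio 0.59), with a log2 fold change of 0.10, a standard error of 0.10 and an interval of -0.12 to 0.33 (limma p = 0.335, exact sign-flip p = 0.375). Atxn7l2 (ENSMUSG00000048997, chr3:108202222-108210934, minus strand) had the lowest counts, with 174 to 349 normalized counts in WT and 186 to 304 in OE. Its ratio was highest in pair 8 (log2 0.58) and lowest in pair 5 (-0.36), and the log2 fold change of 0.07 (standard error 0.13, interval -0.21 to 0.35, limma p = 0.584, exact sign-flip p = 0.547) was well inside that spread.

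Atxn7l3b (ENSMUSG00000074748, chr10:112925430-112929001, minus strand), whose product competes for ENY2, had 3130 to 4205 normalized counts in WT (median 3693) and 2955 to 5151 in OE (median 3655). WT values were the tightest of the set, with a coefficient of variation of 9.52% against 18.9% in OE, where pair 4 was the highest mouse. Its log2 fold change was 0.02 (standard error 0.09, interval -0.18 to 0.23, limma p = 0.813, exact sign-flip p = 0.844).

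Usp27x (ENSMUSG00000046269, chrX:7371276-7375830, minus strand), the paralog that shares the adaptors of USP22, had 299 to 440 normalized counts in WT (median 326) and 243 to 461 in OE (median 377). The means were 345 ± 49.3 and 380 ± 76.3 (SD, n = 7 mice each), 5 of 7 pairs were higher in OE, and the log2 fold change of 0.12 (standard error 0.14, interval -0.19 to 0.43, limma p = 0.396, exact sign-flip p = 0.406) was the largest among the 7 genes. Its value depended on single pairs. It was 0.060 without pair 5 and 0.073 without pair 7, and pair 4 moved it most, where Usp27x was 371 in the WT mouse and 243 in its OE littermate (log2 ratio -0.61), while the other pairs ranged from -0.09 to 0.50. Without pair 4 the log2 fold change was 0.25 and passed the unadjusted threshold in limma (p = 0.0375, adjusted p = 0.563, and exact sign-flip p = 0.0938 over the 6 other pairs), and without that pair 1366 genes passed it in place of 614. With the adipocyte marker level as a covariate it was 0.44 and also passed (limma adjusted p = 0.14), as did 3229 genes of the table. In pair 4 the adipocyte level went from 8.06 in the WT mouse to 5.72 in the OE mouse and the endothelial level from 11.9 to 10.2. Over the 7 pairs, r of the log2 ratio with the adipocyte and endothelial differences was 0.83 and 0.82 for Usp27x. Usp27x was not alone in this, with -0.83 and -0.93 for Atxn7l1, -0.86 and -0.74 for Atxn7l3 and -0.86 and -0.87 for Atxn7l3b. For Eny2, Atxn7l2 and Atxn7 these r lay between -0.61 and 0.27. The part of these cell types in the values of the 7 genes was not tested.

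**Figure D2:**
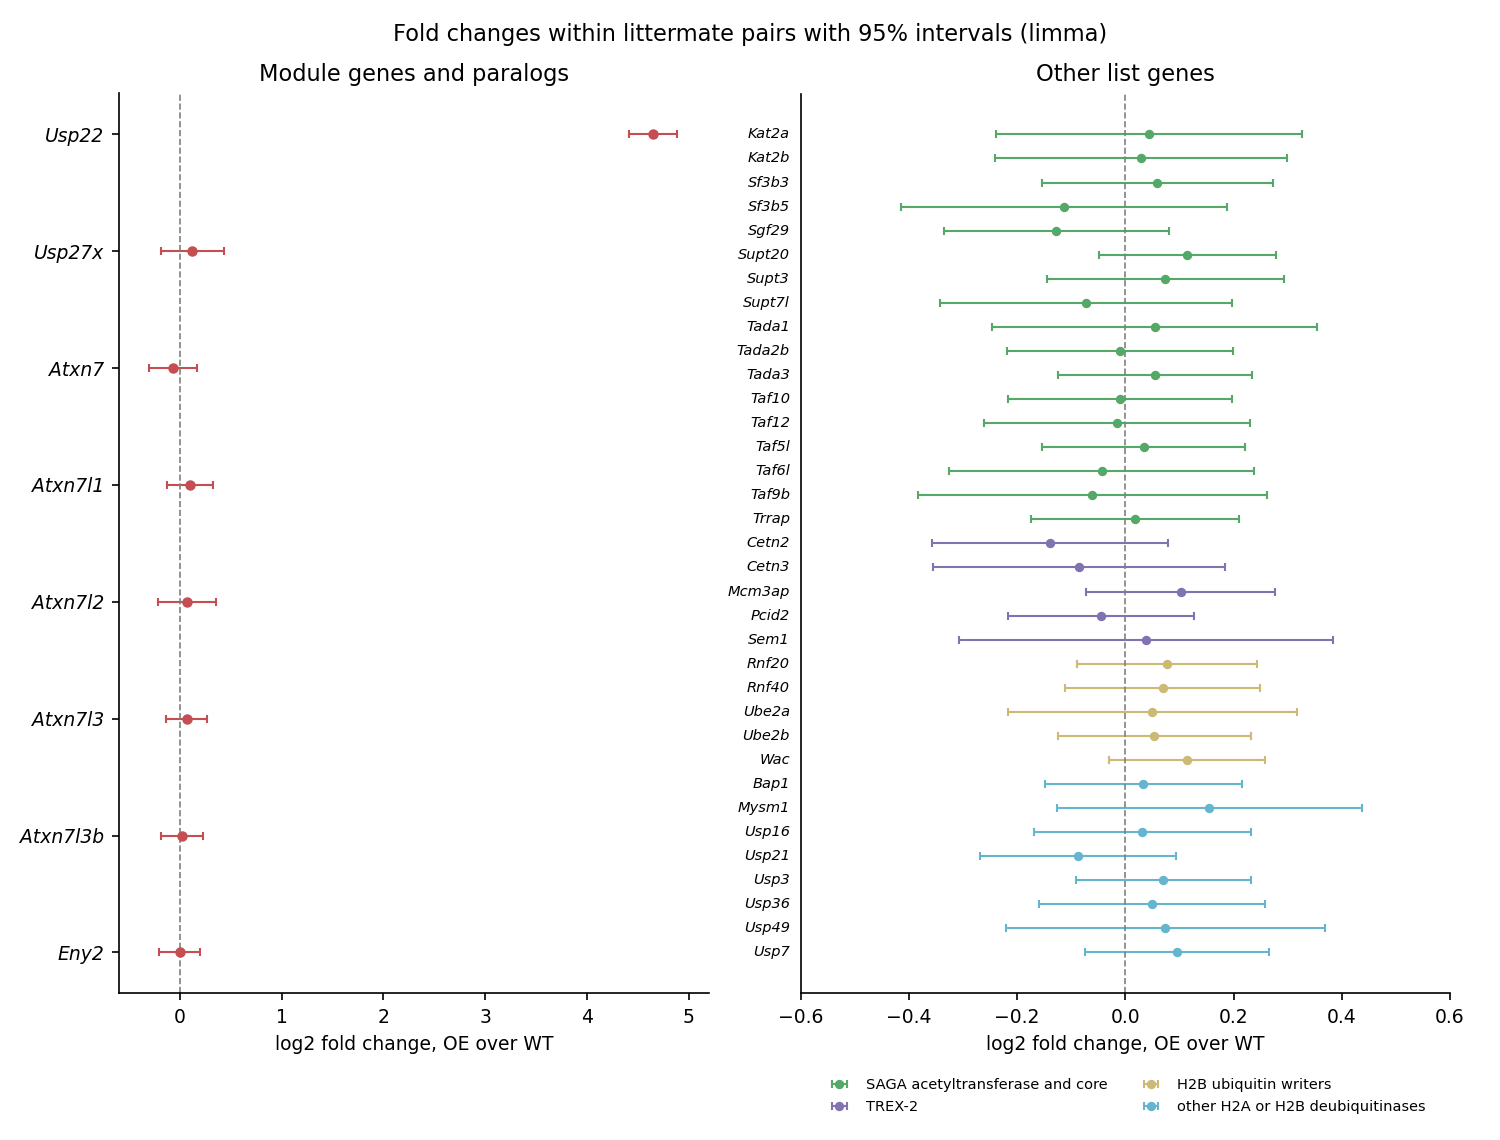
Log2 fold changes of OE over WT with 95% intervals from limma with the littermate pair as a block, for the 8 genes of the set (left) and 35 genes of the SAGA core, TREX-2, the H2B ubiquitin writers and other histone deubiquitinases (right, on an expanded axis). Usp22 stands at 4.65, and every other interval on both sides includes 0.

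Levels between genes were compared per kilobase of annotated exon. In WT cells the 3 highest genes were Atxn7l3b (median 1034 normalized counts per kb), Usp22 (843) and Atxn7l3 (789), followed by Atxn7 (351) and Eny2 (199), and then by Usp27x (76.1), Atxn7l1 (64.6) and Atxn7l2 (44.1). Usp22 and Atxn7l3, which work as partners, did not differ beyond their spread, with Usp22 higher in 5 of 7 mice (exact sign-flip p = 0.172). The ranges of Atxn7l3b and Usp22, of Usp27x and Atxn7l1, and of Atxn7l1 and Atxn7l2 overlapped as well, although the higher gene of each pair was higher in 6 of 7 mice (exact sign-flip p = 0.0312, 0.0469 and 0.0312). The other neighbours in the order were apart in all mice. Part of this order depends on the length used. With the longest annotated transcript as the length, the median of Eny2 in WT became 382 beside 408 for Atxn7, and that of Atxn7l1 became 183, above the 76.2 of Usp27x.

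The rise of Usp22 changed the RNA ratios within the module. Per kilobase, the RNA ratio of Usp22 to Atxn7l3 had a median of 1.13 in WT (0.908 to 1.31 over 7 mice) and 27.8 in OE (15.7 to 43.6). The ratio of Usp22 to Eny2 went from 4.59 to 121 (from 2.63 to 69.2 with the longest transcript as the length), and that of Usp22 to Atxn7 from 2.41 to 69.3. Against its paralog, Usp22 stood at 10.7 times Usp27x in WT and 233 times in OE. Among all genes, 88.4% had a lower level per kilobase than Usp22 in WT and 99.7% in OE, where Usp22 ranked 42 of 16124. Usp22 was divided by its annotated exon length (4886 bases) in both genotypes. The transgene is a cDNA, and the length of its RNA is not given in the sources used here. The Usp22 levels, ratios and rank per kilobase in OE therefore depend on the length assumed. These are ratios of RNA, and protein was not measured in these libraries.

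**Figure D3:**
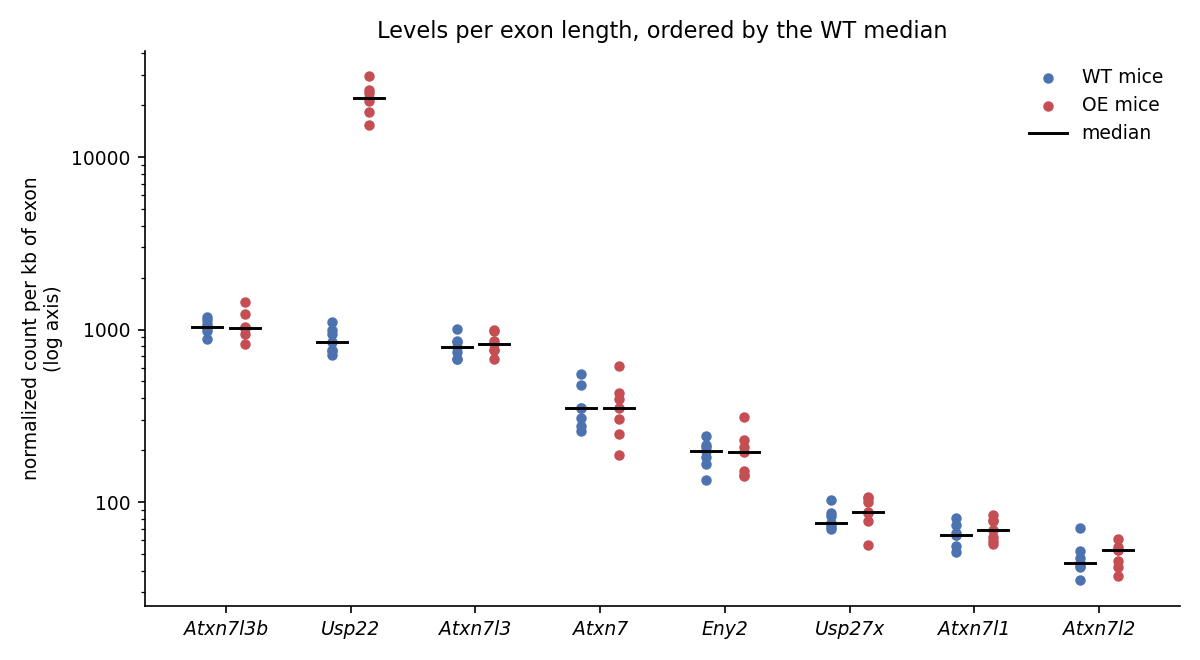
Normalized counts per kilobase of annotated exon (log axis) in each WT mouse (blue) and OE mouse (red), with black lines at the medians and genes ordered by the WT median. Usp22 moves from 843 to 22096, and the other genes keep overlapping ranges in both genotypes.

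It was then asked whether litters with a larger rise in Usp22 showed a larger change in its partners. Across the 7 pairs, 0 of the 7 genes had a log2 ratio correlated with that of Usp22 (exact permutation p of 0.05 or less). The share over all genes was 3.37%, so this count of 0 is near the background. Pearson's r was 0.36 for Usp27x (rho 0.11, exact permutation p = 0.464 and 0.84) and 0.31 for Atxn7 (rho 0.29, exact permutation p = 0.489 and 0.556). It was -0.45 for Atxn7l1 (rho -0.32, exact permutation p = 0.318 and 0.498), -0.50 for Atxn7l2 (rho -0.54, exact permutation p = 0.265 and 0.236), -0.20 for Atxn7l3 (rho -0.18, exact permutation p = 0.655 and 0.713), -0.26 for Atxn7l3b (rho -0.29, exact permutation p = 0.564 and 0.556) and -0.04 for Eny2 (rho -0.07, exact permutation p = 0.922 and 0.906). The adjusted p over 16123 genes was at least 0.955 for each r and at least 0.984 for each rho. Without pairs 3 and 7, the most distant in Usp22 ratio, r was 0.67 for Usp27x, -0.19 for Atxn7, -0.83 for Atxn7l1, -0.60 for Atxn7l2, -0.85 for both Atxn7l3 and Atxn7l3b and -0.20 for Eny2, over 5 pairs. The estimates thus moved widely with the pairs included.

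**Figure D4:**
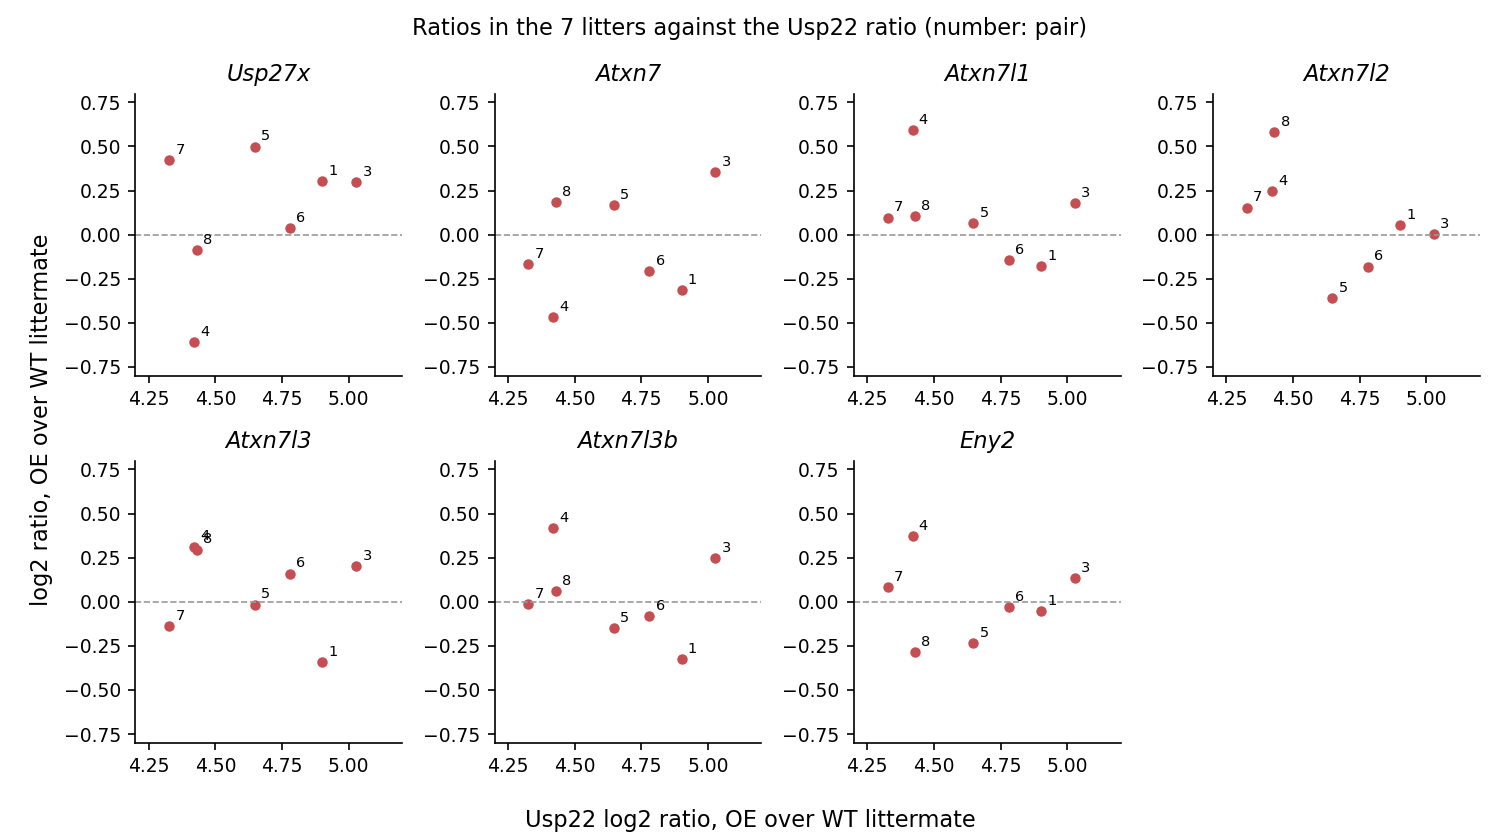
Log2 ratio of OE over WT littermate for each of the 7 other genes (vertical axis) against that of Usp22 (horizontal axis), 1 point per pair with its number; the dashed line marks no change. The Usp22 ratios run from 4.33 to 5.03, and the other genes scatter on both sides of 0.

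In the WT mice alone, native Usp22 levels could be set against those of the other genes. At an exact permutation p of 0.05 or less, 9.45% of all genes were correlated with Usp22 over the 7 mice, and 1 of the 7 genes was, namely Eny2 (r = -0.76, exact permutation p = 0.0405, adjusted p = 0.476, rho = -0.64, exact permutation p = 0.139, adjusted p = 0.497). The Eny2 relation depended on the mice included. Its r was -0.98 without the mouse of pair 1 and -0.21 without the mice of pairs 4 and 7. Atxn7l1 (r = 0.75, rho = 0.75, exact permutation p = 0.0536 and 0.0663) and Atxn7 (r = 0.70, rho = 0.68, exact permutation p = 0.0873 and 0.11) had positive values. Without the mice of pairs 4 and 7, r was 0.59 for Atxn7l1 and 0.43 for Atxn7. Atxn7l3 (r = 0.57, rho = 0.50, exact permutation p = 0.184 and 0.267), Usp27x (r = -0.49, rho = -0.36, exact permutation p = 0.266 and 0.444), Atxn7l3b (r = 0.38, rho = 0.18, exact permutation p = 0.408 and 0.713) and Atxn7l2 (r = 0.20, rho = 0.18, exact permutation p = 0.688 and 0.713) were less closely related to Usp22. Without the mice of pairs 4 and 7, r was 0.74, -0.41, 0.81 and 0.45 for these 4 genes. The adjusted p of the 7 genes was at least 0.476 for r and at least 0.44 for rho. The WT levels of Usp22, Eny2, Atxn7 and Atxn7l1 also moved with a property of whole libraries, described below as the length trend. Its part in these correlations was not tested.

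For 6 of the 7 other genes the litter held most of the spread, and for Usp27x it held less than the part left to neither litter nor genotype. The difference between litters made up 90.1% of the spread of log2 values for Eny2, with Atxn7 just below it, 63.1% to 69.5% for Atxn7l1, Atxn7l2 and Atxn7l3b, with Atxn7l3 just below these, and 44.6% for Usp27x, beside a median of 73.9% over all genes. Of all genes, 85.3% had a lower litter share than Eny2 and 11.1% a lower one than Usp27x. Genotype held at most 5.93% for these 7 genes and 98.9% for Usp22. With so few mice per litter, a large part of the litter share arises without any difference between litters. Some genotype share arises in the same way. The shares are descriptions, and a litter effect was not tested. The labels do not give the days on which the cells were prepared, and if littermates were prepared together, the litter and the day cannot be told apart.

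Atxn7 and Eny2 varied between litters in opposite directions, a relation picked out after the values of 28 gene pairs were seen and therefore given without a test. In pair 5 Atxn7 was high (4395 in WT, 4931 in OE) and Eny2 low (962 and 818). In pair 7 the same held, with 3826 and 3409 for Atxn7 and 778 and 824 for Eny2. In pair 4 Atxn7 was low for the gene (2067 in WT, 1493 in OE) and Eny2 high for the gene (1394 and 1803). Across the 7 mice of a genotype, r was -0.87 in WT and -0.88 in OE (rho -0.89 in both), and -0.86 and -0.70 without the 2 mice most distant in Atxn7.

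A property of the whole libraries moved with this pattern. For each library, the deviation of every gene from its genotype mean was compared with the exon length of the gene, and Spearman's rho of the 2 over 16124 genes is called the length trend; it is positive where long genes read high. The length trend lay between -0.54 (WT pair 4) and 0.54 (OE pair 5), was positive for both mice of pairs 5, 7 and 8 and negative for both mice of pairs 1, 3, 4 and 6. Over the 7 mice, its r was 0.97 in WT and 0.84 in OE with Atxn7 (rho 0.93 and 0.79), and -0.93 and -0.88 with Eny2 (rho -0.96 and -0.82). For Atxn7l1 the r was 0.93 in WT and 0.66 in OE, and for native Usp22 in WT it was 0.70 (rho 0.86, 0.75 and 0.79). For Usp22 in OE it was -0.11 (rho -0.39). For Usp27x, Atxn7l2, Atxn7l3 and Atxn7l3b it lay between -0.29 and 0.45 in both genotypes. By exon bases, Atxn7 (7978), Atxn7l1 (10049) and Eny2 (5763) were all above the median of all genes (4133). By the longest transcript, Atxn7 had 6853 bases, Atxn7l1 3548 and Eny2 3000 (median 3215). The trend was computed with exon bases, by which Eny2 was long although its r was negative. Between littermates the length trend differed by 0.05 ± 0.15, with 4 of 7 pairs higher in OE (exact sign-flip p = 0.406). With it as a covariate beside the pair, a fit added after the data were seen, Usp22 had a log2 fold change of 4.69 and the other 7 genes lay between -0.09 (Atxn7) and 0.20 (Usp27x), with 0 of them called in limma. Its part in the differences between litters was not tested.

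**Figure D5:**
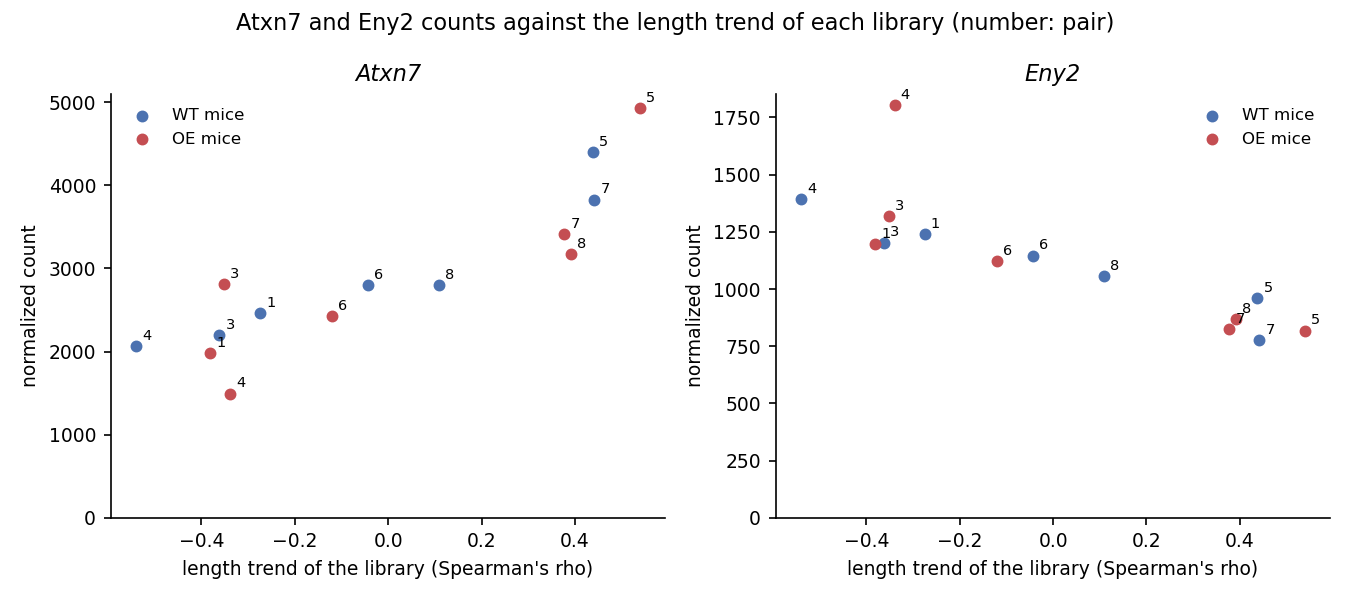
Normalized counts of Atxn7 (left) and Eny2 (right) in each mouse against the length trend of its library, which is the Spearman rho between gene deviation and exon length. Numbers are the pairs, WT is blue and OE is red. Atxn7 is highest (4931) and Eny2 among the lowest (818) in the library with the strongest positive trend, OE pair 5.

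The genes whose levels followed those of the module most closely over the 14 libraries, with the genotype mean removed, were looked up for the protease and both adaptors. For Usp22 they were Plk3 (r = 0.88), Ets1 (0.83) and Nup210l (0.83), for Atxn7l3 Tmem86b (0.94), Pkp1 (0.94) and Rhoq (0.94), and for Eny2 Mff (0.98), Uxt (0.98) and Ndufaf2 (0.98). Genes of the set were left out of this search. These are the largest values out of all genes with a mean of at least 50 normalized counts, and the 2 libraries of a litter are not independent.

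The other subunits of SAGA and the enzymes that act on the same mark were examined in the same fit, in which 3.81% of all genes were called, so that a count of 0 among lists of this size is near the background. Of 17 genes of the SAGA acetyltransferase module and core in the table, 0 were called by limma, edgeR or DESeq2 (median log2 fold change 0.02). Kat2a and Kat2b, the acetyltransferases, changed by 0.04 (standard error 0.13, limma p = 0.737, exact sign-flip p = 0.859) and 0.03 (standard error 0.12, limma p = 0.815, exact sign-flip p = 0.797). Of 5 TREX-2 genes, which share Eny2 with the module, 0 were called (median -0.05). Of 5 genes that place ubiquitin on H2B, 0 were called (median 0.07), and the ligase subunits Rnf20 (0.08, limma p = 0.326, exact sign-flip p = 0.281) and Rnf40 (0.07, limma p = 0.414, exact sign-flip p = 0.406) were close to each other. Of 8 other H2A or H2B deubiquitinases in the table, 0 were called (median 0.06), with 0.07 for Usp49 (limma p = 0.589, exact sign-flip p = 0.594). Usp44 and Taf9 were not analysed here. Across the 35 genes the log2 fold changes lay between -0.14 (Cetn2) and 0.15 (Mysm1), the lowest p was that of Wac (limma p = 0.106, exact sign-flip p = 0.0625), and no 95% interval extended beyond -0.42 or 0.44.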

How the data were processed

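Mammary epithelial cell RNA of 14 mice (7 WT, 7 OE) was used, grouped by the genotype in the labels. The authors mapped paired reads of 75 bases to mm10 with TopHat2 2.0.10, counted fragments per gene with HTSeq 0.6.0, required 10 fragments in 7 libraries of each gene, and deposited a signal, counts divided by DESeq 1.18.0 size factors. The strand setting of the counting is not given in the sources used here. Divided by the worth of 1 fragment, 100% of the values came out whole in each library (tolerance 0.1 fragment), which gave the depth. All 16124 gene identifiers matched GENCODE M21, which gave positions, exon lengths and transcripts.

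Log2(normalized count + 1) was fitted over the whole table with limma 3.58.1 in R 4.3.3 (trend), with the littermate pair as a block and Benjamini-Hochberg adjustment over all genes. An unadjusted p of 0.05 or less was the threshold, as in the study, and limma replaced its per-gene paired test, which was an alternative. Pairs are littermates by the study's methods. Deviations from the genotype means had r = 0.17 to 0.75 between same-numbered libraries (median 0.52). Between WT and OE libraries of different numbers r ran from -0.54 to 0.63 (median -0.15). The deviations sum to 0 within a genotype, so the r of these other combinations is not independent of that of same-numbered libraries. Single values were tested by exact sign flips over 7 pairs (two-sided, smallest p 0.0156), and correlations by exact permutation. The fits were tested on simulated data. All libraries differed by more than sampling noise (smallest chi-square per gene 30.3). Depth sets the precision of low counts such as Atxn7l2, at 112 fragments in the shallowest case. Adipocyte, fibroblast, endothelial, macrophage, lymphocyte and epithelial marker levels are means of log2 values.

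The genes of the set, the lists, the markers and the tests were chosen with earlier results of these data known. The text names every gene of the set in the table, list genes with an unadjusted p of 0.05 or less, Kat2a, Kat2b, Rnf20, Rnf40, Usp44 and Usp49, and the 3 genes most like Usp22, Atxn7l3 and Eny2. List genes at the ends of a range were named after their values were seen. Alternatives were pseudocounts of 0.1 and 10, a minimum mean of 50, no block, edgeR 4.0.16 and DESeq2 1.42.0 on the recovered fragments, median centring, quantile normalization, the adipocyte covariate, other exon lengths and each pair left out. The length trend covariate was added after the data were seen. The sequences of 1 other most alike stretch are not reported here.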

Additional observations from a re-analysis of the deposited data

How the results depend on the processing

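Usp22 was called at an unadjusted p of 0.05 or less under every alternative run. By the study's per-gene paired test its adjusted p was 0.263, and no gene of the set then had an adjusted p under 0.05. The count of genes of the set called was 1, and 2 with the adipocyte covariate (Usp22 and Usp27x), and 1 to 2 with each pair left out (2 without pair 4). Without the block of littermate pairs, 182 genes of the whole table were called in place of 614, and with the adipocyte covariate 3229; the block changed no call among the genes of the set. With each pair left out, 381 (without pair 6) to 1366 (without pair 4) were called, and 1196 without pair 1. Of the list genes, 1 was called by the paired test (Wac), 2 with the adipocyte covariate (Kat2b and Usp21, chosen by their values) and 0 to 2 with a pair left out (Wac and Sf3b5 without pair 4, Supt20 without pair 1). The paired test called 644 genes of the whole table, close to the 614 of the main fit. Its count of 1 among 35 list genes is therefore near the background.

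Small fold changes crossed 0. With the adipocyte covariate the log2 fold change was -0.11 for Atxn7l1, -0.038 for Atxn7l2, -0.14 for Atxn7l3 and -0.19 for Atxn7l3b. Atxn7l3b was at -0.017 after quantile normalization and -0.023 with the length trend covariate. Eny2 was at 0.031 by the paired test, 0.017 after median centring, 0.0078 after quantile normalization and 0.0069 with the length trend covariate. With each pair left out, the log2 fold change ran from -0.13 to 0.0027 for Atxn7, -0.014 to 0.14 for Atxn7l2, 0.060 to 0.25 for Usp27x, 0.020 to 0.15 for Atxn7l1, 0.027 to 0.14 for Atxn7l3, -0.043 to 0.080 for Atxn7l3b and -0.064 to 0.045 for Eny2, and r with the Usp22 ratio from -0.13 to 0.54 for Atxn7, -0.51 to 0.18 for Atxn7l3, -0.72 to 0.0043 for Atxn7l3b and -0.31 to 0.37 for Eny2. In WT mice, r of Eny2 with Usp22 ran from -0.98 to -0.51 and fell short of the threshold in 6 of 7 such settings. After median centring, Atxn7l1 (r = 0.82) and Atxn7 (r = 0.78) passed it, as did Atxn7 without pair 1 (r = 0.86), Atxn7l1 without pair 6 (r = 0.82) and Usp27x without pair 3 (r = -0.80). The causes were not tested. The intervals given for each gene hold for the main fit alone. With the adipocyte covariate, the log2 fold changes of Usp27x (0.44), Atxn7l3 and Atxn7l3b lay just outside them.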
